A study of Mus musculus with 5 samples.

Results

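The contrast set the livers of mice that ate an atherogenic diet for 10 weeks against the livers of mice that ate chow, with 2 arrays on each side. The long-diet side held the array of the diet alone and the array of the diet with atorvastatin, and the chow side held the arrays of 10 weeks and of 1 week on chow. These are 4 of the 5 arrays of the series, and they were chosen from the labels alone. The array of 1 week on the diet is outside the contrast and is given beside it for single genes. For each of 12393 genes named by the array annotation, the mean difference on the log2 scale and the smallest gap between any diet array and any chow array were taken. Of these genes, 8922 were measured, which means a signal above a floor of 138.8 on at least 2 of the 4 arrays, and 3471 were not. A gene was called higher or lower where the smallest gap was at least 1.5-fold, so that every diet array lay at least that far from every chow array.

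All animals were C57B/L mice, 8 weeks old at the start and kept for 2 weeks before feeding began. They then received chow for 10 weeks, the atherogenic diet for 10 weeks, the same diet for 10 weeks with atorvastatin during the last 3 weeks, chow for 1 week, or the diet for 1 week. The labels name no transgene or deletion. Each array was hybridised with cRNA from a pool of livers of 1 group, and neither the size of the pools nor what the diet held is stated in the labels. The 1-week diet array has a source name that speaks of chow while its title and description speak of the diet. No group has a replicate array, so the values carry no error of their own, and the number of arrays limits the precision. The arrays within a side also differ by design, in atorvastatin on the diet side and in feeding time and age on the chow side.

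Atherogenic diets commonly hold more fat and cholesterol than chow and are used in mice to raise blood cholesterol and provoke artery lesions. In liver, sterols that reach the endoplasmic reticulum hold back the transcription factor SREBP2, which drives cholesterol synthesis and sterol uptake, while SREBP1c drives fatty acid synthesis under insulin and the oxysterol receptor LXR. Atorvastatin inhibits HMG-CoA reductase, the rate-limiting enzyme of cholesterol synthesis, and so relieves that restraint. Feeding, fasting and the hour of the day also set the liver transcriptome, through the fasting factor PPAR alpha and through a clock of transcriptional repressors and activators.

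The tissue label was met by its markers, since 0 of 19 hepatocyte markers lay below the floor on all 4 arrays. The median of that list differed by -0.01 on the log2 scale between the sides. Within the chow side it differed by 0.51, with the 10-week array higher. The summed signal of these markers was 588886 on the 10-week and 364408 on the 1-week chow array. It was 448318 on the diet alone and 436821 with atorvastatin. Rank correlations between the 4 arrays, over the floored signals of all probe sets except controls, were 0.904 to 0.919. A 2-fold difference was seen for 389 genes (4.36%) between the chow arrays and for 380 (4.26%) between the long-diet arrays, against 430 to 594 genes between a diet and a chow array. The geometric mean of the spike-in controls was highest on the 10-week chow array, at 5.76 times its level on the 1-week chow array, with 1.42 and 1.87 times that level on the long-diet arrays. Signal from 18S ribosomal RNA was 13944 on the atorvastatin array and 437 to 2185 on the others. Whether these technical differences bear on any gene below was not tested.

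Between the sides, 134 genes were called higher on both long-diet arrays, which is 1.5% of the measured genes, and 125 were called lower, which is 1.4%. A gap of any size in which the sides did not overlap was far more frequent, with 2046 genes higher (22.9%) and 1548 lower (17.4%), and in the other 5328 genes the sides overlapped. A gap of at least 2-fold was met by 18 genes higher (0.202%) and 17 lower (0.191%). Of the called genes, 78 of those higher and 97 of those lower lay above the floor on all 4 arrays. In 33 higher genes both chow arrays were at the floor, and in 13 lower genes both long-diet arrays were, so their folds are bounds. The median of the mean log2 difference over all measured genes was 0.05, with 4978 of them above 0. Called higher genes were dimmer than called lower genes, with a median log2 signal of 8.14 against 9.01, and 8.67 over all measured genes.

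Set against the spread within the sides, no single gene stood out at the usual threshold. In limma, with Benjamini-Hochberg adjustment over 8922 genes, 0 genes (0%) had an adjusted p below 0.05, and 770 (8.63%) had an unadjusted p below 0.05. The lowest adjusted p in limma was 0.198. That fit had 2 residual degrees of freedom, and its spread contains the effect of atorvastatin and of feeding time and age. The calls are therefore descriptions of 4 pools.

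**Figure D1:**
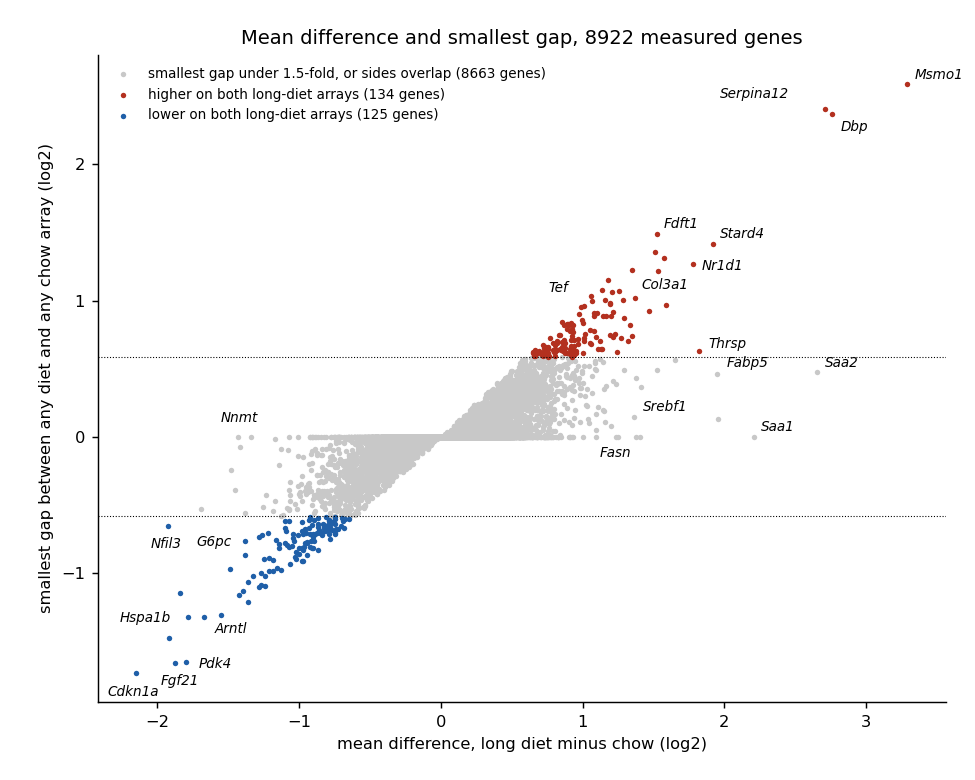
Each point is 1 of 8922 measured genes, with the mean difference of the long-diet arrays from the chow arrays (log2) on the horizontal axis and the smallest gap between any diet and any chow array (log2, 0 where the sides overlap) on the vertical axis. Dotted lines mark a gap of 1.5-fold. The 134 red genes and 125 blue genes lie past it, with Msmo1, Serpina12 and Dbp farthest above, while Saa1 and Saa2 combine large mean differences with a small or absent gap.

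The gene with the widest gap encodes an enzyme of cholesterol synthesis, and enzymes of that pathway were mostly higher on both long-diet arrays. In the values that follow, chow is given at 10 weeks and then at 1 week, and the long diet is given alone and then with atorvastatin. Msmo1, the methylsterol monooxygenase that strips methyl groups from sterol intermediates, had signals of 153 and 204 on chow and of 1230 and 2428 on the long diet. The smallest ratio between a diet and a chow array was 6.02-fold, and the mean difference was 3.29 on the log2 scale with a limma standard error of 0.37. Its 2 chow signals lay close to the floor, and the atorvastatin array was the highest. After 1 week of diet the signal was 130, below the floor and below both chow arrays.

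The window of 250 bases upstream of the Msmo1 start site is shown because this gene had the widest gap of all. It lies at chr8:64733579-64733828 on the minus strand of GRCm38.p6, is taken from RefSeq, and is printed 5′ to 3′ along the gene. Capitals mark the 3 matches to CCAAT, the letters of the NF-Y box, at positions -160, -96 and -55 from the start.
Msmo1: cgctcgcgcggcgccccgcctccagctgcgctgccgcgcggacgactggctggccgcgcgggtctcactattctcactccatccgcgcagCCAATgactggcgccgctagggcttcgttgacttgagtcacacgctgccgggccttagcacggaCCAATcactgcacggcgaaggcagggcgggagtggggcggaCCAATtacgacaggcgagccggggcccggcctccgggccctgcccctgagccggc
At least 1 CCAAT on either strand is found in 33.8% of 32851 promoter windows of this length, and the Msmo1 window has no match to the sterol element TCACNCCAC, which 1.05% of them hold. A match is a string of letters and not a measured binding site.

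Squalene, the first committed sterol precursor, is made by Fdft1, squalene synthase. Fdft1 was among the steadiest genes of the contrast, with signals of 458 and 441 on chow and of 1296 and 1289 on the long diet. The smallest ratio was 2.81-fold, the arrays of each side were nearly equal, and the 1-week diet array (470) stayed at the level of chow. Sqle, the squalene epoxidase that catalyses the following step, had signals of 336 and 345 on chow and of 578 and 637 on the long diet, a smallest ratio of 1.67-fold. On the 1-week diet array Sqle was lower than on chow, at 201. The Sqle call was lost when a pseudocount replaced the floor.

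Upstream of squalene no enzyme was called, although all 5 measured ones were apart as higher. Fdps, farnesyl diphosphate synthase, had signals of 1198 and 422 on chow and of 2814 and 1772 on the long diet, and missed the 1.5-fold limit with a gap of 0.56 on the log2 scale. Idi1, the isopentenyl diphosphate isomerase, had signals of 663 and 259 against 893 and 1295, a gap of 0.43. In both genes the 10-week chow array was well above the 1-week chow array, and the 1-week diet array, at 240 for Fdps and 175 for Idi1, was the lowest of all. Pmvk, phosphomevalonate kinase, stood apart by 0.50, and Hmgcs1, the synthase that makes HMG-CoA for this pathway, by 0.03. Hmgcs1 read 3578 and 3422 on chow, 3654 on the diet alone and 6416 with atorvastatin, so only the atorvastatin array was clearly above chow. Other Hmgcs1 probe sets ran from -0.03 to 0.77. Among the later enzymes, Sc5d, Cyp51, Tm7sf2 and Ebp had overlapping sides.

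Of 16 measured genes of cholesterol synthesis, 3 were called higher and 0 lower, and 11 stood apart as higher and 1 as lower. Over all measured genes 1.5% were called higher, 22.9% were apart as higher and 17.4% as lower. The exception was Hsd17b7, a reductase of a late step, at -0.38. The list median was 0.50, against 0.05 over all measured genes. That median was 0.63 for the diet alone and 0.63 with atorvastatin, each set against the mean of the chow arrays, and 8 of the 16 genes were higher with atorvastatin than without. The chow arrays themselves differed in this list by a median of 0.50, with the 10-week array higher. Without the 10-week chow array the list median was 0.86, and without the 1-week chow array it was 0.47. After 1 week of diet the median of the same genes was -0.56 against the same chow arrays. The lists were chosen with earlier results of these data known. List shares set beside those of all genes, here and below, are therefore descriptions and not tests.

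Proteins that sense and move sterols divided. Stard4, a soluble carrier of cholesterol between membranes, had signals of 283 and 438 on chow and of 1519 and 1169 on the long diet, a smallest ratio of 2.67-fold. Its other probe set gave a mean difference of 1.90, beside 1.92 for the one used. Insig2, which retains the SREBP escort protein in the endoplasmic reticulum, went the opposite way, with 7487 and 10479 on chow and 3785 and 3997 on the long diet. Both other Insig2 probe sets were also past the limit, at -1.39 and -1.37. The 1-week diet array had an Insig2 signal of 8477, within the chow range. Among 12 measured genes of sterol sensing and uptake, Stard4 and Insig2 were the only 2 called, where 1.5% and 1.4% of all genes were. The list median was 0.15, and in 9 genes the sides overlapped. Srebf2, the gene of SREBP2, was one of those 9, with signals of 271 and 750 on chow and of 518 and 573 on the long diet.

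The list of sterol export genes and LXR targets had no called member among 13, with a median of 0.27. It also holds the transporters Abcb4 and Abcb11 and the receptor genes Nr1h3 and Nr1h4. With 1.5% of all genes called higher and 1.4% lower, a list of this size can have none without differing from other genes. Of the 13, 4 were apart as higher and 2 as lower. Abcg5, a partner of the biliary cholesterol transporter, had signals of 2452 and 1749 on chow and of 4126 and 2684 on the long diet, so that the atorvastatin array exceeded the 10-week chow array by little. Pltp, the phospholipid transfer protein, came nearest to a call, with a gap of 0.52, and its other probe set, at a mean difference of 1.13, was past the limit. For Abca1, the exporter of cholesterol to nascent HDL, the sides overlapped (2408 and 2482 against 3106 and 2070), while its other probe sets gave 0.70 and 1.06, and 1 of them was past the limit. Bile acid synthesis and transport had 0 called genes of 19, also near the share over all genes, and a median of 0.04. Cyp7a1, which starts bile acid synthesis from cholesterol, overlapped between the sides at 2797 and 2277 against 1772 and 2627, and its other probe set had the opposite sign. Cyp8b1, which directs synthesis to cholic acid, was lower but not called, with 5935 and 7199 against 2338 and 4662. Apoa1, the main protein of HDL, overlapped as well, at 66214 and 37065 against 47771 and 50383.

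Fatty acid synthesis separated the diet alone from chow more than it separated the atorvastatin array. Thrsp, a nuclear and cytosolic regulator of lipogenesis, had signals of 2540 and 1475 on chow and of 11944 and 3924 on the long diet, a smallest ratio of 1.54-fold. The diet alone was the highest array by a wide margin, and the call rests on the lower signal with atorvastatin. Averaging the Thrsp probe sets ended the call. Scd2, a desaturase isoform, was at the floor on both chow arrays and had 230 and 340 on the long diet, at least 1.65-fold higher, a call lost with a pseudocount or the mean of its probe sets. Fasn, fatty acid synthase, had signals of 1244 and 750 on chow, 3783 on the diet alone and 1122 with atorvastatin, so its sides overlapped in spite of a mean difference of 1.09. Srebf1, which encodes SREBP1, stood apart by only 0.15, at 1737 and 625 against 3729 and 1924. Scd1, the main liver desaturase, overlapped at 32869 and 18027 against 35632 and 25285, with a mean difference of 0.30, beside 1.35 for its other probe set.

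Counted over the list of fatty acid synthesis genes and lipogenic regulators, 2 of 21 measured members were called higher, against 1.5% of all genes. The 1 called lower, against 1.4% of all genes, was Insig2. Insig2 retains the SREBP escort protein, is not an enzyme of fatty acid synthesis, and is also counted in the sterol sensing list. The sides overlapped in 13 of the 21. The list median was 0.65. Against the mean of the chow arrays it was 1.17 for the diet alone and 0.05 with atorvastatin, and 2 of the 21 genes were higher with atorvastatin than without it. The median without the diet-alone array is thus 0.05, and the level of this list on the long-diet side rests on 1 array. Mlxipl, the glucose-responsive factor ChREBP, had 1281 and 1431 on chow and 3047 and 1860 on the long diet, a gap of 0.38. Mid1ip1, which activates acetyl-CoA carboxylase, had 509 and 382 against 1467 and 558, a gap of 0.13.

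**Figure D2:**
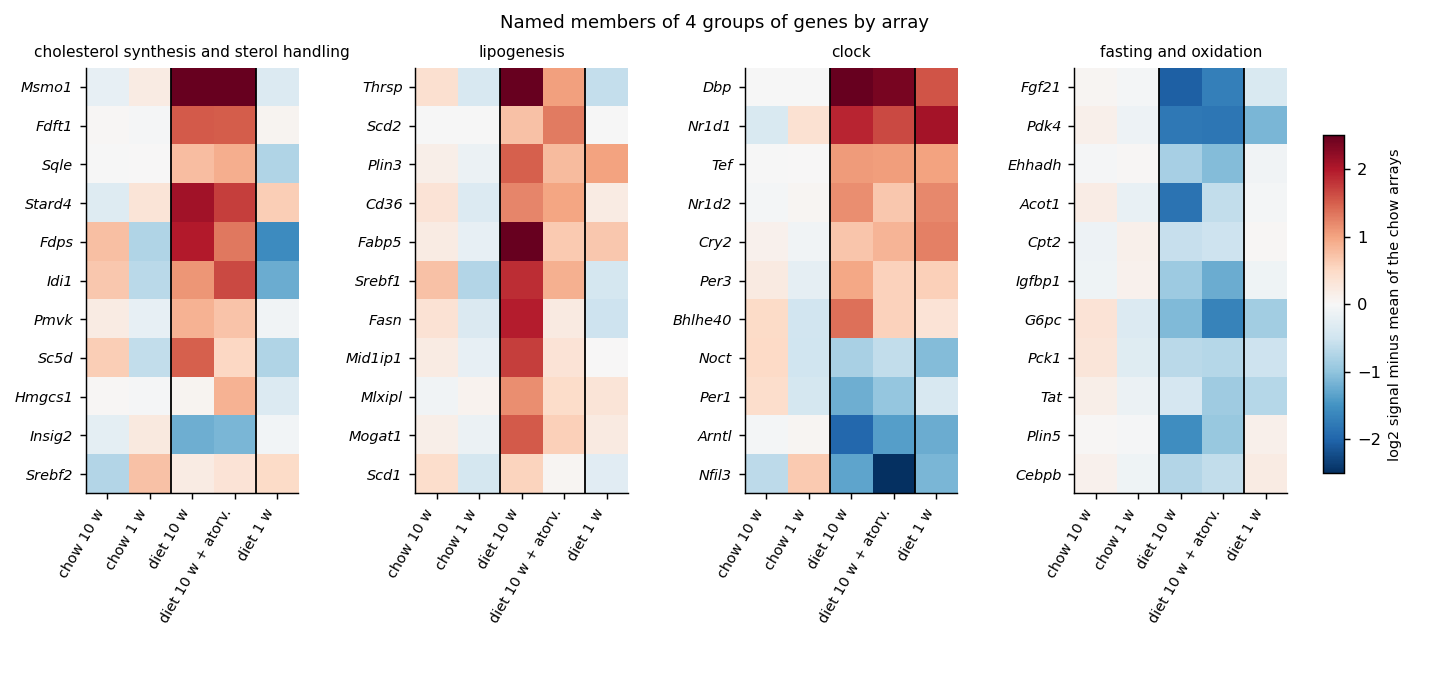
Colour gives the log2 signal of a gene on 1 array minus its mean on the chow arrays, from -2.5 (blue) to 2.5 (red), for 4 groups of named genes and, from left to right, the 2 chow arrays, the 2 long-diet arrays and the 1-week diet array. In the first block Msmo1 and Fdft1 are red on both long-diet arrays, whereas in the second block Fasn and Mid1ip1 are red mainly on the diet alone.

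Lipid uptake and storage genes were called in both directions. Cd36, the fatty acid transporter, had signals of 1961 and 1220 on chow and of 3609 and 3069 on the long diet, a smallest ratio of 1.56-fold. Both other Cd36 probe sets gave similar differences, 0.96 and 1.13, although quantile and loess normalization ended the call. Plin3, a coat protein of nascent lipid droplets, was called higher, with 452 and 372 against 1153 and 706, a call lost with a pseudocount. Plin5, the coat protein of droplets in oxidative tissue, was called lower, with 2019 and 1914 against 668 and 1025. Fabp5, a fatty acid binding protein, was uneven, with 542 and 413 on chow, 4497 on the diet alone and 745 with atorvastatin, and was not called, although its other probe set, with a mean difference of 2.47, was past the limit. Triglyceride assembly and droplet genes had 1 call in each direction among 23, where 1.5% of all genes were called higher and 1.4% lower. Their median was -0.0037, which quantile normalization turned to 0.10. The 15 measured lipoprotein genes had 0 calls and a median of -0.13. In that list Apoa4, an apolipoprotein of lipid-loaded liver and gut, had 2203 and 5583 on chow and 7190 and 12071 on the long diet, with 13216 after 1 week.

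Genes of the circadian clock gave 7 calls among 17 measured members, 5 higher and 2 lower, where 1.5% and 1.4% of all genes were called. Like the other lists, this one was chosen with earlier results of these data known, so its share of calls is not a test. Dbp, a transcription factor whose transcript follows the clock, was below the floor on both chow arrays and had signals of 1231 and 716 on the long diet, at least 5.16-fold higher. Its other probe set also met the limit, with a mean difference of 2.29. Nr1d1, the repressor REV-ERB alpha, had 190 and 321 on chow and 930 and 772 on the long diet, a smallest ratio of 2.40-fold. Tef, a relative of Dbp, was nearly level within each side, at 1062 and 1089 against 2259 and 2230. Another Tef probe set gave -0.18, and averaging both ended the Tef call. Nr1d2, REV-ERB beta, had 686 and 728 against 1581 and 1125, and Cry2, a cryptochrome repressor, had 159 and a value below the floor against 239 and 266. A pseudocount in place of the floor ended the calls of Nr1d2, Cry2 and Nfil3. The Cry2 gap, 0.590 on the log2 scale, was barely past the limit of 0.585, and quantile and loess normalization also ended its call. Averaging the Nr1d2 probe sets ended the Nr1d2 call.

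Arntl, which encodes the activator BMAL1, and Nfil3, a repressor that binds the same sites as Dbp, were the called lower members. Arntl had signals of 637 and 683 on chow and of 168 and 254 on the long diet, a smallest ratio of 2.5-fold. Nfil3 varied widely inside each side, with 511 and 1266 against 325 and a value below the floor. Other members were apart but not called, and are given by their mean differences. They were Clock, the partner of BMAL1, at -0.70, the cryptochrome Cry1 at -0.64 and Per1 at -1.09. The deadenylase Noct was at -0.72, Per3 at 0.77 and the repressor Bhlhe40 at 0.98. The gaps of Noct and Bhlhe40 were only -0.12 and 0.11. In 4 of the 17 genes the sides overlapped. The median of the list was 0.27, and -0.08 without the atorvastatin array, since its members divided into higher and lower. The labels state no hour of killing or of light, so diet and hour of collection cannot be told apart.

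The same clock genes on the 1-week diet array, set against the same chow arrays, had signals of 414 for Dbp, 1039 for Nr1d1, 2153 for Tef, 1616 for Nr1d2, 353 for Cry2, 280 for Arntl and 366 for Nfil3. Each of these called genes lay beyond both chow arrays on the side where the long-diet arrays lay. Of members apart but not called, Per3 (279) and Noct (321) did so too. Per1 (243) and Bhlhe40 (529) lay within the chow range. The 1-week diet array was not used in any of the calls, but the calls used the same chow arrays, so it is no independent check.

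Promoter windows of Tef and Nr1d2 are shown as examples of called clock genes in which a clock motif was found. Windows of 250 bases upstream of the start site were available for 9 of the 12 called members of the clock and sterol lists. They were searched on both strands for the E-box CACGTG, bound by the BMAL1 and CLOCK pair, the D-box TTATGTAA, bound by DBP, TEF and NFIL3, and the hexamer AGGTCA, bound by ROR and REV-ERB receptors. Both Tef start sites, at chr15:81802423-81802672 and chr15:81811164-81811413 on the plus strand of GRCm38.p6, had the E-box, at positions -127 and -138. The Nr1d2 window, at chr14:18239107-18239356 on the minus strand, had the hexamer at position -77. Capitals mark these matches.
Tef, first start site: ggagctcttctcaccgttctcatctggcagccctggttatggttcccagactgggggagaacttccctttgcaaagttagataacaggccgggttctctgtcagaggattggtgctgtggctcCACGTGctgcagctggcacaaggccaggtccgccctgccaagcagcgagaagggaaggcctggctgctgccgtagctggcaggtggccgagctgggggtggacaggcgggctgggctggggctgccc
Tef, other start site: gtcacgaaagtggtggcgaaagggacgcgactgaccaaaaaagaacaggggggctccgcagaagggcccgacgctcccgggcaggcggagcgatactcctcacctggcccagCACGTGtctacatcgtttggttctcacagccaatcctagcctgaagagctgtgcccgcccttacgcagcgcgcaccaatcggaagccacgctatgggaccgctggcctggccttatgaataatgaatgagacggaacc
Nr1d2: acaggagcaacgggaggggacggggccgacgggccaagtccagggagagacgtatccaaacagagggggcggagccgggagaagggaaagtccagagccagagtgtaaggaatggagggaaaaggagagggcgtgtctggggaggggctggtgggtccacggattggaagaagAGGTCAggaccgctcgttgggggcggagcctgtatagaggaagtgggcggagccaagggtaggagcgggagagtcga
The E-box is found in 6.02% of 32851 windows of this length, the hexamer in 14% and the D-box in 0.819%. Nfil3, whose window is not shown, had 1 hexamer on the minus strand, at position -12. The windows of the called clock genes Arntl, Cry2, Nr1d1 and Dbp had no match to the E-box, the D-box or the hexamer. None of the windows searched for the called genes held the D-box. These windows are short, and a missing match says only that the letters are not in them.

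Several genes known to be induced by fasting were lower on both long-diet arrays. Pdk4, the kinase that shuts pyruvate dehydrogenase in fasting, had signals of 1214 and 1012 on chow and of 321 and 317 on the long diet, a smallest ratio of 3.15-fold. In limma the mean difference was -1.80 with a standard error of 0.24 and an adjusted p of 0.26. Fgf21, a fasting hormone of liver, had 594 and 553 on chow, a value below the floor on the diet alone and 175 with atorvastatin, a smallest ratio of 3.16-fold. Ehhadh, the peroxisomal bifunctional enzyme of fatty acid oxidation, had 12409 and 12879 against 7085 and 5926. In each of these genes both diet arrays lay well under both chow arrays. The 1-week diet array was at 504 for Pdk4, 438 for Fgf21 and 11883 for Ehhadh, between the chow and long-diet values.

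These 3 genes were the lower calls among 34 measured targets of PPAR alpha and genes of fatty acid oxidation, where 1.4% of all measured genes were called lower. Cd36 was the list's 1 higher call, 12 members were apart as lower and 7 as higher, and the median was -0.07. Over all measured genes 17.4% were apart as lower and 22.9% as higher, so the share of higher members was near that of all genes. Acot1, a cytosolic acyl-CoA thioesterase, had 4621 and 3554 on chow, 1125 on the diet alone and 2649 with atorvastatin, a gap of -0.42. Bdh1, the ketone body dehydrogenase, was higher but not called, at 4788 and 3143 against 7976 and 6477. Cpt1a, the carnitine acyltransferase that admits fatty acids to mitochondria, overlapped with a mean difference of 0.03.

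The list of gluconeogenesis and fasting genes had the lowest median of all 35 lists, -0.50. Of its 13 measured genes 2 were called lower, against 1.4% of all genes, and 0 higher. It holds fasting-related genes besides the gluconeogenic enzymes. Among those enzymes Fbp1 and Pcx had overlapping sides, with mean differences of -0.01 and 0.11. G6pc, the glucose-6-phosphatase, had signals of 14508 and 9107 on chow and of 5372 and 3609 on the long diet, a smallest ratio of 1.70-fold. Igfbp1, a fasting-induced binding protein of insulin-like growth factors, had 12663 and 14693 against 7246 and 5784. Pck1, the cytosolic PEP carboxykinase, was apart but not called, at 15999 and 10442 against 8086 and 7883, and so were Tat, tyrosine aminotransferase, the insulin receptor substrate Irs2 and the transcription factor Cebpb. In this list 7 genes were apart as lower (17.4% of all genes) and 2, Trib3 and Foxo3, as higher (22.9% of all genes). The other Trib3 probe set gave -1.11, beside 0.50 for the one used. Without the 1-week chow array the median was -0.17. The urea cycle and amino acid breakdown list had 0 calls among 24 and a median of -0.26, which became 0.01 without the 10-week chow array. Within it Asl, argininosuccinate lyase, had 11768 and 11298 on chow, 2947 on the diet alone and 7892 with atorvastatin.

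**Figure D3:**
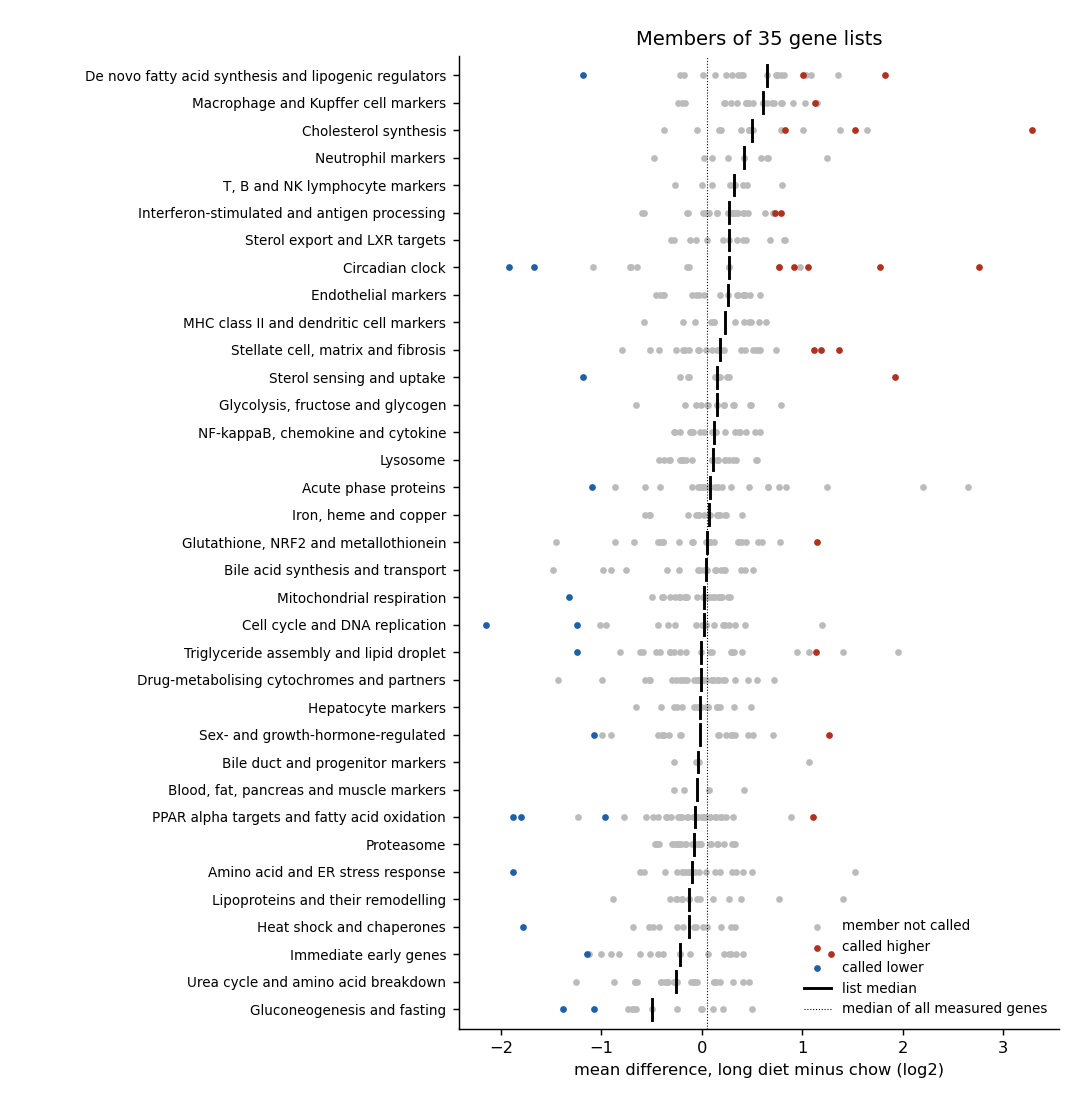
Each row is 1 of 35 gene lists and each point a measured member, placed by its mean difference, long diet minus chow (log2), with called higher members in red, called lower members in blue and the list median as a black bar. The dotted line is the median of all measured genes, 0.05. Lipogenic genes, macrophage markers and cholesterol synthesis have the medians farthest to the right, and the gluconeogenesis and fasting list has the one farthest to the left.

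The widest gap among lower genes was that of Cdkn1a, an inhibitor of cyclin-dependent kinases. Its signals were 1460 and 1906 on chow and 321 and 440 on the long diet, a smallest ratio of 3.32-fold and a mean difference of -2.15. After 1 week of diet the signal was 933, below both chow arrays and above both long-diet arrays. Rrm2, the small subunit of ribonucleotide reductase, was also lower, at 531 and 468 against 193 and 230. Its other probe sets gave -0.43 and -0.26, and averaging them or leaving out x and s probe sets ended the Rrm2 call. Ccng2, an atypical cyclin of resting cells, had 900 and 994 against 388 and 350, but its other probe set gave 0.20. Gadd45b, a stress-response gene, missed the limit with a gap of -0.53, and 1 of its other probe sets was past it. Of 18 measured genes of cell cycle and DNA replication, 2 were called lower and 0 higher, where 1.4% and 1.5% of all genes were. The list median was 0.02.

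Among stress and growth-factor responses, calls were made in both directions. Hspa1b, an inducible heat shock chaperone with a near-identical neighbour that the probe set may not separate, had signals of 1412 and 2466 on chow and of 520 and 565 on the long diet. The ratio was at least 2.5-fold in every pair of arrays, and after 1 week of diet Hspa1b was at 2426, level with the 2466 of chow at 1 week. It was the 1 call among 14 measured chaperones, where 1.4% of all genes were called lower. The chaperone median was -0.13. Sgk1, a kinase induced by glucocorticoids and serum, was lower at 1277 and 1439 against 520 and 725. Junb, a subunit of the transcription factor AP-1, was higher at 261 and 278 against 854 and 509. These were the 2 calls among 19 immediate early genes, in which 9 members were apart as lower and 4 as higher. The shares over all genes were 17.4% and 22.9%, and the higher members were near the latter. For calls, the shares over all genes were 1.4% lower and 1.5% higher. Egr1, another member, was not called at 1596 and 1959 against 438 and 1502.

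Several connective tissue genes were higher on both long-diet arrays. Col3a1, a fibrillar collagen chain, had signals of 341 and 254 on chow and of 690 and 835 on the long diet, a smallest ratio of 2.02-fold. Lgals1, galectin-1, had 740 and 564 against 1485 and 1462, and only 359 on the 1-week diet array. Anxa2, an annexin of the plasma membrane, had 765 and 602 against 1752 and 1243. Col6a2, a collagen VI chain that lies outside the list, had 184 and 288 against 545 and 744. Averaging all probe sets ended the calls of Col3a1, Anxa2 and Col6a2. Of 26 measured stellate cell and matrix genes, 3 were called higher and 0 lower, where 1.5% and 1.4% of all genes were. In that list 9 stood apart as higher and 3 as lower, against 22.9% and 17.4% of all genes. The sides overlapped in 14, and the median was 0.18. Col1a1 overlapped with a mean difference of 0.43, Acta2, the actin of activated stellate cells, overlapped with 0.19, and Ccn2, connective tissue growth factor, was lower but not called, with 719 and 778 against 350 and 533.

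The summed signal of those matrix markers was 14433 and 19783 on chow and 19105 and 20433 on the long diet, so the sides overlapped, and 3 of the 30 with a probe set were below the floor on all 4 arrays (Pdgfrb, Mmp12 and Mmp13). In a pool of whole liver, more cells of a type and more RNA per cell cannot be told apart. Endothelial markers had 0 calls of 19, a median of 0.26 and summed signals of 11437 and 15402 against 14816 and 15294. The endothelial median turned to -0.25 without the 10-week chow array. Whether the makeup of the tissue has a part in the collagen values was not tested.

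Macrophage and Kupffer cell markers were apart as higher in 14 of 23 measured genes and apart as lower in 1, Msr1, with a median of 0.60, where 22.9% and 17.4% of all measured genes were. Only Lyz2, lysozyme of myeloid cells, was called, with signals of 1000 and 997 on chow and of 1562 and 3060 on the long diet, and a pseudocount ended that call. Cd5l, a protein secreted by tissue macrophages, had 1416 and 2936 against 3344 and 6110. Lgals3, galectin-3, had 211 and 266 against 305 and 895, and Tyrobp, a signalling adaptor of myeloid receptors, had 448 and 839 against 983 and 1600. In these 4 genes the atorvastatin array was the highest of the 4. Clec4f, a receptor of Kupffer cells, and the complement genes C1qa, C1qb and C1qc were apart as higher, with mean differences of 0.61 to 0.80. Their gaps were small, at 0.05 to 0.13.

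Summed over the list, macrophage marker signal was 15553 and 22685 on chow and 24796 and 36005 on the long diet, and Itgam was below the floor on all 4 arrays. Set against the mean of the chow arrays, the list median was 0.36 for the diet alone and 0.78 with atorvastatin. Leaving out the 10-week chow array lowered the median to 0.31, and leaving out the 1-week chow array raised it to 0.87. Neutrophil markers had 0 calls of 10 and a median of 0.42, with summed signals of 2503 and 2491 against 3138 and 5311. Of the 5311 on the atorvastatin array, 3132 came from Lcn2, and 2 of the 10 genes were higher with atorvastatin than without. The neutrophil median was 0.55 for the diet alone and 0.25 with atorvastatin. Lymphocyte markers had 0 calls of 9, with 4 more below the floor on every array of the contrast (Cd3d, Cd4, Cd8b1 and Cd2). MHC class II and dendritic cell markers had 0 calls of 12 and a median of 0.23.

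Interferon-stimulated genes gave 2 higher calls and 0 lower among 24 measured members, where 1.5% and 1.4% of all genes were called. Of the 24, 10 were apart as higher and 2 as lower, where 22.9% and 17.4% of all genes were, and the median was 0.27. Oas1a, an oligoadenylate synthetase, had 432 and 390 on chow and 695 and 725 on the long diet, a call lost with a pseudocount. Igtp, an interferon-inducible GTPase, had 1036 and 987 against 1719 and 1627. In both genes the arrays within a side were close together. Genes of the NF-kappaB, chemokine and cytokine list had 0 calls of 19 and a median of 0.12.

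The remaining genes with the widest gaps belong to no single list. Serpina12, which encodes vaspin, a serine protease inhibitor also secreted by fat, had signals of 146 and 170 on chow and of 1170 and 902 on the long diet. Its smallest ratio, 5.31-fold, was the second after that of Msmo1 among genes above the floor on all arrays, and the 1-week diet array had 189. As for Msmo1, both Serpina12 chow signals lay close to the floor of 138.8. Slc9a3r1, a scaffold for membrane transporters, had 1626 and 1979 against 3656 and 3926, with both other probe sets past the limit too. Fam20c, a kinase of the secretory pathway, had 304 and 321 against 635 and 624. Tomm40l, a mitochondrial import pore protein, had 216 and 178 against 564 and 553, and Alpk3, an alpha-kinase, had 181 and 198 against 373 and 371. In those 3 genes the long-diet arrays differed from each other by less than the chow arrays did.

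Lasp1 and Malat1 were less certain. Lasp1, an actin-binding LIM protein, had 630 and 420 against 1508 and 1467, but its 8 other probe sets ran from -0.55 to 0.73 and 5 of them shared the direction. Malat1, a nuclear long noncoding RNA, had 496 and 894 against 1748 and 2285 and its other probe sets ran from -0.67 to 0.12. The 1-week diet array had a Malat1 signal of 3679, above all 4 arrays of the contrast. Igfals, which stabilises circulating insulin-like growth factors, had 883 and 424 against 1462 and 1491. Gstm3, a glutathione transferase, had 953 and 1148 against 2526 and 2121, while on the 1-week diet array it was lower than on chow, at 509. It was the 1 call among 23 genes of glutathione metabolism and the NRF2 response, where 1.5% of all genes were called higher. In that list Gsta2 had a mean difference of -1.46 without a call.

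Genes with both chow arrays at the floor can be given as bounds only. Besides Dbp, the largest bounds were those of Eef1akmt1, a lysine methyltransferase, at least 2.48-fold, Foxm1, a transcription factor of dividing cells, at least 2.23-fold, Afg3l1, a mitochondrial protease gene, at least 2.11-fold, and Cav1, the caveolin of plasma membrane pits, at least 2.10-fold. Foxm1 had 318 and 309 on the long diet and 42 after 1 week of diet, the last below the floor. The other Afg3l1 probe set gave -0.13. With a floor at the 60th percentile the calls of Eef1akmt1, Foxm1, Afg3l1 and Cav1 were lost, as were those of Rrs1, Vars and Wfdc1 on the lower side. Among lower genes Rrs1, a ribosome assembly factor, had 712 and 387 on chow and values at the floor on the long diet, at least 2.79-fold lower. Vars, the valyl-tRNA synthetase, was at least 2.47-fold lower, Wfdc1 at least 2.14-fold, Ndufb1, a subunit of respiratory complex I, at least 2.03-fold and Gtf2ird1, a transcription factor, at least 1.97-fold.

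Further lower genes had signals above the floor on every array. Ell2, a transcription elongation factor, had 1421 and 1713 on chow and 637 and 533 on the long diet. Tmed5, a cargo protein of the early secretory pathway, had 3254 and 3403 against 1083 and 1481, and its other probe set agreed in direction with a mean difference of -1.42. Grsf1, an RNA-binding protein of mitochondria, had 2287 and 2439 against 1078 and 886. Clpx, a subunit of the mitochondrial ClpXP protease, had 3013 and 2666 against 1040 and 1336. Slc25a22, a mitochondrial glutamate carrier, had 3179 and 4030 against 1486 and 1610, and Ndufaf4, an assembly factor of complex I, had 1022 and 1155 against 534 and 507. In these 6 genes the 1-week diet array was within 1.5-fold of at least 1 chow array, as the plot of the widest gaps shows. Of 36 measured genes of mitochondrial respiration, 1 (Ndufb1) was called lower and 0 higher, near the 1.4% and 1.5% of all genes. The list median was 0.02.

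Ptch1, the hedgehog receptor, had 682 and 856 on chow and 327 and 344 on the long diet, although its other probe set differed by only -0.02. The transcription factor Sp3 had 684 and 460 against 235 and 170. Cpeb4, a regulator of translation through the poly(A) tail, had 1793 and 1382 against 709 and 703. Steap4, a metalloreductase, had 1663 and 1198 against 699 and 621, whereas its other probe set gave 0.63. Averaging all probe sets ended the calls of Ptch1, Cpeb4, Steap4, Grsf1 and Ccng2.

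**Figure D4:**
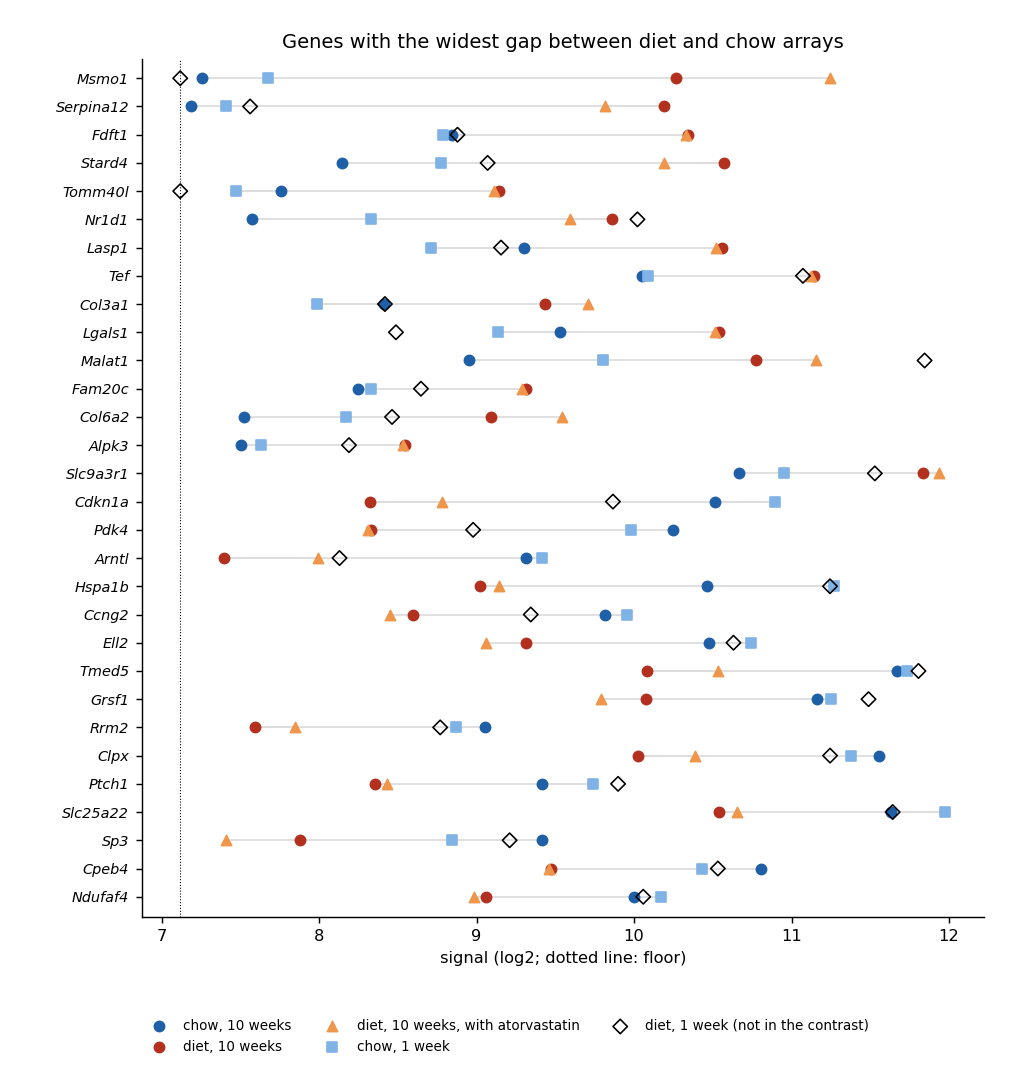
Signals (log2) on each array for the 15 higher and 15 lower genes with the widest gap among genes above the floor on all 4 arrays, with the floor as a dotted line. Grey lines join the 4 arrays of the contrast, and open diamonds show the 1-week diet array. Blue chow symbols and red and orange long-diet symbols do not overlap in any row, and Fdft1 and Tef have nearly coincident symbols within each side.

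A large mean difference did not ensure a gap. The mean difference was at least 2-fold in 99 genes higher and 83 lower, and of these 44 and 31 were not called and 7 and 4 had overlapping sides. Saa1, an acute phase apolipoprotein, had signals of 778 and 1094 on chow, 929 on the diet alone and 19553 with atorvastatin, so the mean difference of 2.21 came from 1 array. Saa2, its near-identical neighbour, which the probe sets may not separate, had 309 and 410 on chow, 570 on the diet alone and 8826 with atorvastatin. Lcn2, lipocalin-2, followed the same arrays, with 452 and 530 on chow and 431 and 3132 on the long diet. These acute phase proteins were thus high on the atorvastatin array. On the diet alone Saa1 and Lcn2 were near chow, whereas Saa2 was above both chow arrays, with a gap of 0.48 that was not called. Of 26 measured acute phase genes 0 were called higher and 1, Steap4, was called lower, where 1.5% and 1.4% of all genes were.

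Other genes owed their mean difference to the diet alone or to 1 chow array. Aqp8, a water channel of hepatocytes, had 1050 and 552 on chow, 3957 on the diet alone and 989 with atorvastatin. Fitm1, which partitions fat into droplets, had 379 and a value below the floor on chow, 1146 on the diet alone and 323 with atorvastatin. Nnmt, nicotinamide N-methyltransferase, was low on the diet alone, at 708, and read 3813 and 5637 on chow and 4188 with atorvastatin. Pmf1 was below the floor only on the 1-week chow array. Gsdme and Col12a1 were highest on the 10-week chow array, and Fos was highest on the 1-week chow array, at 1351 against 269 to 339 on the other 3 arrays of the contrast. Apob, the core protein of very low density lipoprotein, had 6219 on the diet alone and 20895 to 22320 on the other 3 arrays.

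**Figure D5:**
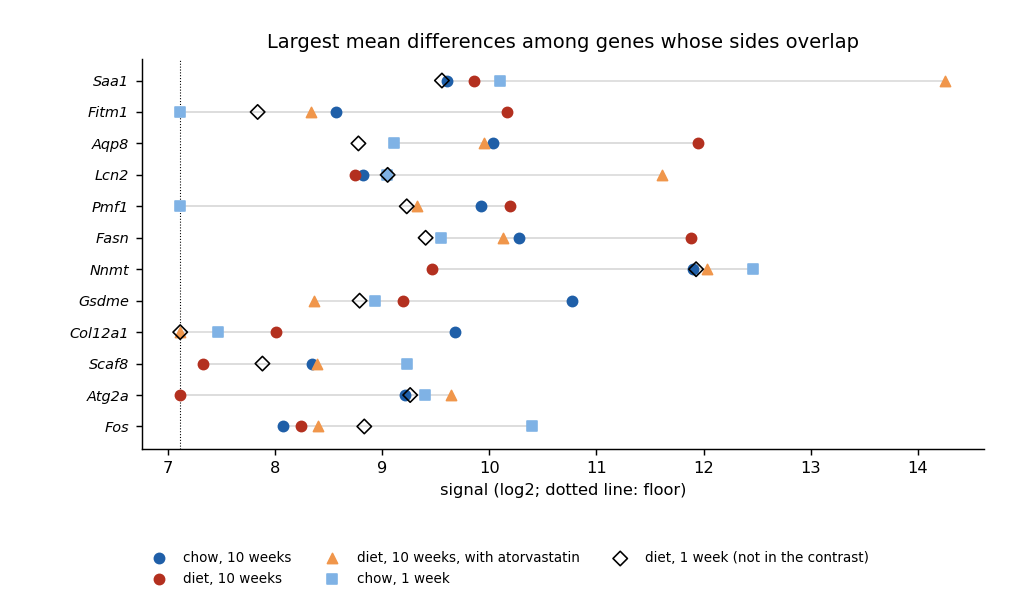
Signals (log2) on each array for the 6 higher and 6 lower genes with the largest mean difference among genes whose sides overlap, with the floor as a dotted line. Saa1 and Lcn2 stand out on the atorvastatin array, and Aqp8, Fitm1 and Fasn on the diet alone.

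At the limit itself the choice of 1.5-fold separated genes of nearly equal gap. Just inside it on the higher side were Lgals2 (124 and 155 against 233 and 264, the first below the floor) and Serf1 (196 and a value below the floor against 332 and 295), and just outside were Chchd6 (147 and 174 against 319 and 261) and Slc16a11 (513 and 565 against 914 and 846). On the lower side Ythdc1 (396 and 583 against 243 and 263) and Tmx1 (1492 and 1745 against 994 and 926) were just inside, and Chtop (736 and 747 against 461 and 491) and Hnrnpl (402 and 600 against 268 and 187) just outside. Of the called genes, 22 higher and 15 lower genes belonged to a list, and 17 of the 35 lists had none. At shares of 1.5% and 1.4% over all genes, lists of these sizes can have none without differing from other genes.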

How the data were processed

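Liver cRNA of 5 groups of mice was measured on 1 oligonucleotide array per group. For every probe set the authors deposited a linear intensity. It is a MAS5 signal, per the submitters' processing notes, and each array has a 2% trimmed mean near 500. Detection calls were not used here, and groups were taken from the sample titles.

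Arrays were rescaled to a common trimmed mean, given a floor of 138.8 (the 40th percentile, 7.12 on the log2 scale) and taken to log2. Flooring lowers the differences of dim genes. Controls, 64 probe sets, were omitted. Of 22690 probe sets, 20393 have 1 gene symbol, 691 have several and 1606 are not listed in the platform annotation; those with 1 symbol were used, and a gene is represented by its probe set with the highest mean log2 signal. Names were looked up in the RefSeq table of GRCm38.p6, which held 99.8% of the identifiers. The calls involve no test. As a check, limma (lmFit and eBayes) compared the sides with Benjamini-Hochberg adjustment; its prior degrees of freedom were 4.60, and the script was tested on simulated data.

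Named genes are, per direction, the 15 widest gaps above the floor on all 4 arrays, up to 5 bounds, up to 6 large mean differences with overlapping sides and the 2 nearest the limit on each side, then called members of 35 lists with up to 4 further members of each list, and 20 preset genes, of which 16 were measured. Other genes complete a count or illustrate a list, and were picked with their values in view. Clone names were passed over, among them 6 called genes. Members and lists were chosen with earlier results of these data known. Other settings tried were no rescaling, quantile and loess normalization, a lower floor (20th percentile) and a higher one (60th), a pseudocount, averaged probe sets, omission of x and s probe sets, measured genes above the floor on 1 or all arrays, gaps of 0 or 2-fold, an eBayes trend and leaving out each array. Promoter windows come from RefSeq with their untranslated bases removed. Computations used R 4.3.3, limma 3.58.1, Python 3.11.15, numpy 2.4.6, pandas 2.3.3 and matplotlib 3.10.9.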

Additional observations from a re-analysis of the deposited data

Results flagged for a closer look

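The 18S ribosomal RNA control probe sets, which no comparison uses, had a geometric mean signal of 13944 on the atorvastatin array, against 437 to 2185 on the others. Gstm3, Lgals1 and Sqle were higher than on both chow arrays on both long-diet arrays and lower than on both chow arrays on the 1-week diet array, at 508.9, 358.8 and 201.1. Ythdc1 was lower on both long-diet arrays and higher than on both chow arrays after 1 week of diet, at 884. Its call was just inside the 1.5-fold limit. It was lost with a floor at the 60th percentile, a pseudocount, averaged probe sets or omission of x and s probe sets. A pseudocount also ended the Sqle call. The difference between 1 week and 10 weeks of diet was not tested for these genes, and both are set against the same chow arrays.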

How the results depend on the processing

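Against 134 higher and 125 lower genes, a floor at the 20th percentile gave 281 and 248, a pseudocount in place of the floor gave 61 and 71, a gap of 2-fold gave 18 and 17, and any gap above 0 gave 2046 and 1548. The floor at the 60th percentile gave 57 higher genes, measuring only genes above the floor on all 4 arrays gave 78 higher genes, and the mean of all probe sets gave 75 lower genes. Leaving out 1 array relaxes the rule by construction and gave 428 to 565 higher and 344 to 426 lower genes. Quantile normalization gave 103 and 129, loess 105 and 126, and leaving out x and s probe sets 136 and 115, while no rescaling changed neither count. In limma, 2 genes, Msmo1 and Serpina12, passed when only genes above the floor on all 4 arrays were tested, and 0 passed under the other settings run. Of 67 named called genes, 32 kept their call under all 14 settings that measured them, and 1, Malat1, reversed to -0.67 without x and s probe sets. The 14 settings include leaving out each array, which cannot end a call. They also include other limits for a measured gene, which can drop a gene but not end its call. Of 35 list medians, 31 moved by over 0.1 and 20 changed sign when 1 array was left out, and 8 of the 20 had been at least 0.1 from 0 (clock, endothelial, glycolysis, heat shock, lipoprotein, NF-kappaB, sterol sensing and urea cycle lists). Under the other settings 12 moved by over 0.1 and 6, all within 0.1 of 0, changed sign. No paired analysis was possible because each group is a single array. Probe sets not above the floor limit what is seen of dim genes, and the pools have no replicates.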
